A study of Homo sapiens with 20 samples.

Results

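RUNX1 binding was followed across 30 chromatin regions (peaks) that lay around 7 genes, TMEM120B, RHOF, DESI1, TGFA, CTIF, PDGFRB and PLEKHA5, out of 26642 RUNX1 peaks measured in THP-1 cells. THP-1 is a cell line that was established from human acute monocytic leukemia. The genes were chosen from earlier results of the same libraries, by the gain in RUNX1 signal of 1 strongly gained peak in or near each of them. The peaks were then taken by position alone, as every peak within 50 kb of the RefSeq span of a gene (build GRCh38). The windows of TMEM120B and its neighbour RHOF overlap, so the 7 genes form 6 loci. Each locus has 1 strongly gained peak, here called its lead peak and defined as the gained peak with the largest test statistic of the window. This leaves 24 neighbouring peaks. Their own values did not enter the choice of the genes, with 1 exception at CSF1R that is given without a test. By the definition of the lead peak, no gained neighbour has a larger test statistic than the lead peak of its window.

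Libraries came from chromatin immunoprecipitation with sequencing (ChIP-seq) against RUNX1, in which chromatin fixed with formaldehyde is pulled down with an antibody and the recovered DNA is counted. Control libraries (n = 6) came from THP-1 cells with a doxycycline-inducible scramble shRNA, and knockdown libraries (n = 6) from THP-1 cells in which an shRNA directed at PU.1 was induced. Doxycycline was added to the medium in both groups. Each group was prepared in 2 experimental rounds (batches), with 3 control and 2 knockdown libraries in batch 1 and 3 control and 4 knockdown libraries in batch 2. The libraries are described as replicates of the cell line, and nothing says that they came from separate cultures, so p-values measure the spread between these libraries, which may be technical. Another 8 samples made with an unspecific IgG antibody were not analysed here, and the PU.1 level itself is not measured by this assay. Reads in peaks numbered 630247 to 1199004 in the control libraries and 938745 to 1719840 in the knockdown libraries.

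RUNX1 is a DNA-binding factor of blood stem cells and of the myeloid and lymphoid lineages, and it often sits beside PU.1, an ETS family factor that keeps myeloid enhancers accessible.  A peak far from any gene start is usually an enhancer candidate, and clustered enhancers may change together or one by one. The question at these loci was whether the lead peak stood alone as a new site or was part of a gain of the whole neighbourhood.

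The 7 genes belong to no common pathway. TMEM120B encodes a multipass membrane protein and RHOF a small GTPase that promotes filopodia. DESI1 encodes a peptidase that removes SUMO from proteins, TGFA a ligand of the epidermal growth factor receptor, CTIF a translation initiation factor that works with the nuclear cap-binding complex, PDGFRB a receptor tyrosine kinase for platelet-derived growth factor and PLEKHA5 a protein with a pleckstrin homology domain. None of the 6 lead peaks overlapped a promoter, taken here as the 250 bases before and 50 bases after a RefSeq gene start. CTIF had no promoter among those used here, so overlap with its promoter could not be assessed. Of the other genes, the promoters of 2, TMEM120B and RHOF, were overlapped by a RUNX1 peak, and neither peak was called. They are shown because they separate the binding at the gene starts of this locus from the gained site inside it. Sequences are RefSeq, build GRCh38.p14, 5′ to 3′ on the strand of the gene, with the 50 bases that follow the start in capitals. The TMEM120B promoter is on the plus strand at chr12:121712502-121712801, and its first 205 bases lay inside the peak. The RHOF promoter is on the minus strand at chr12:121793639-121793938 and lay inside its peak with all 300 bases.
TMEM120B: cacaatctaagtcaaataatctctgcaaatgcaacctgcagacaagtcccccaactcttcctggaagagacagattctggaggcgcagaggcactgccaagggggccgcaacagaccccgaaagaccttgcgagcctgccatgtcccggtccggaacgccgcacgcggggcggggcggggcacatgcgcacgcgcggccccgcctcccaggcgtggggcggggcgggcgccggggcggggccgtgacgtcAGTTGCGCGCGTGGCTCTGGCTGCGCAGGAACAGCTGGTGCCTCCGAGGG
RHOF: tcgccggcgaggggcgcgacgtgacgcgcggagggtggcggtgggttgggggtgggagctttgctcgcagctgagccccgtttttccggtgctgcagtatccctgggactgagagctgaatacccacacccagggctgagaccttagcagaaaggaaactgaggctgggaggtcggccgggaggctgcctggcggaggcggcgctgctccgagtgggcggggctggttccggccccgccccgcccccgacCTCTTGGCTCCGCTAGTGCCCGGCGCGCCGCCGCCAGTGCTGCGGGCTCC
Both were rich in G and C (68.3% and 72.0%). Neither held the RUNX core TGTGGT nor the PU.1-type hexamer GAGGAA on either strand. These letters were found in 13.1% and 27.9% of the 35116 promoters of the table. The shorter GGAA shared by ETS factors was not counted and is present in both sequences.

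The lead peaks were weak sites in control cells that held more signal in the knockdown. Since the values of these peaks chose the loci, they are given as a description without a test. The share of all peaks whose groups do not overlap is not given here, so statements of no overlap describe single peaks only. Per kb of peak, the control signal of the 6 lead peaks was between 8.04 and 22.99 normalised reads (reads divided by the library's size factor), where the median of all peaks was 34.1. In knockdown libraries the same peaks held between 29.2 and 130.2 normalised reads per kb, where the median of all peaks was 33.1, and stood between percentiles 38.6 and 99.1 of all peaks. Low control signal is common to gained peaks, whose median over the series was percentile 17.3 in control and 72.5 in knockdown libraries.

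The largest gain was inside TMEM120B, at chr12:121758130-121759221. Control libraries held 3.46 to 12.99 normalised reads there (median 9.93) and knockdown libraries 57.3 to 137.8 (median 104.7). The groups did not overlap, and the log2 fold change was 3.35 ± 0.26 (SE), rank 3 among all peaks. The other lead peaks ranked 53 (DESI1), 76 (TGFA), 90 (CTIF), 248 (PDGFRB) and 407 (PLEKHA5). In raw counts, no control library had more than 10 reads and no knockdown library fewer than 73. Per kb, this peak moved from percentile 0.574 of all peaks in control to percentile 95.95 in knockdown libraries. The 2 knockdown libraries of batch 1 (66.7 and 57.3) were below the 4 of batch 2 (99.8 to 137.8), and the log2 fold change was 2.88 ± 0.47 within batch 1 and 3.74 ± 0.36 within batch 2 (SE).

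Inside DESI1, at chr22:41603724-41604735, control libraries held 19.5 to 26.0 normalised reads (median 23.4) and knockdown libraries 112.8 to 152.0 (median 131.8). The spread among controls was the smallest of the 6 lead peaks in relation to the mean (23.3 ± 2.13, SD, n = 6), and the log2 fold change was 2.48 ± 0.17 (SE). The median log2 fold change was 0.14 on chromosome 22 and 0.19 over the 271 peaks of the 10 Mb around this peak, so the gain exceeded its surroundings by 2.29. The part of that regional shift in the value was not tested.

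The TGFA lead peak was outside the gene, 42673 bp beyond its upper end, which is the upstream side of this minus-strand gene (chr2:70596499-70597362). It held 9.48 to 22.3 normalised reads in control libraries (median 16.4) and 73.3 to 99.8 in knockdown libraries (median 84.4), without overlap. Its log2 fold change was 2.36 ± 0.21 (SE), while the 10 Mb around it had a median of -0.19.

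Inside CTIF, at chr18:48749856-48751027, the count was 15.0 to 32.5 in control libraries (median 23.6) and 100.7 to 130.8 in knockdown libraries (median 118.1). The groups were again apart, with a log2 fold change of 2.29 ± 0.17 (SE).

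The PDGFRB lead peak lay 3588 bp beyond the upper end of the gene, upstream of its start (chr5:150159433-150160338). Control libraries held 6.51 to 12.6 normalised reads (median 8.44) and knockdown libraries 26.1 to 44.7 (median 32.3), with a log2 fold change of 1.93 ± 0.29 (SE). This peak started at percentile 1.32 of all peaks per kb and reached percentile 59.4.

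Inside PLEKHA5, at chr12:19150520-19151006, the lead peak was the narrowest of the 6 and had the lowest normalised count in both groups. It held 0.931 to 9.48 normalised reads in control (median 2.91) and 9.32 to 19.1 in knockdown libraries (median 14.2). Knockdown replicate 6 (9.32) fell just below control replicate 6 (9.48), so the groups overlapped in batch 2. The log2 fold change was 1.76 ± 0.44 (SE), with 2.08 within batch 1 and 1.57 within batch 2.

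**Figure D1:**
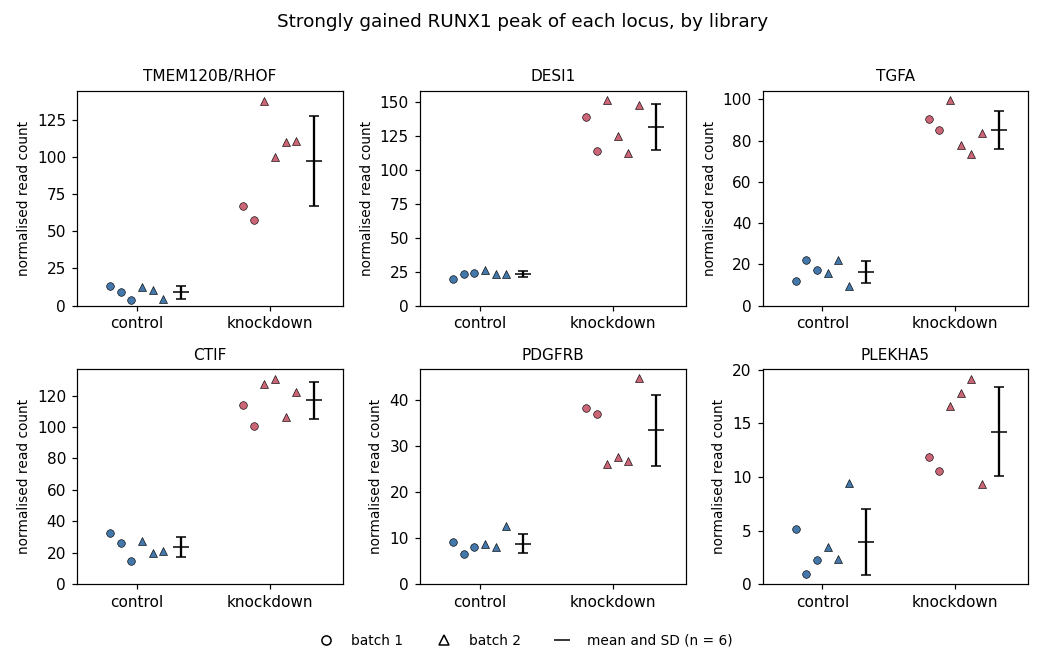
Normalised RUNX1 read count (y axis) of the lead peak of each locus in the 6 control and 6 knockdown libraries, with circles for batch 1, triangles for batch 2 and a bar for mean and SD. Knockdown libraries lie above all control libraries in 5 panels, while at PLEKHA5 knockdown replicate 6 (9.32) touches the control range, which ends at 9.48. The lead peaks were chosen for their gain, and the share of all peaks with groups apart is not given here.

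**Figure D2:**
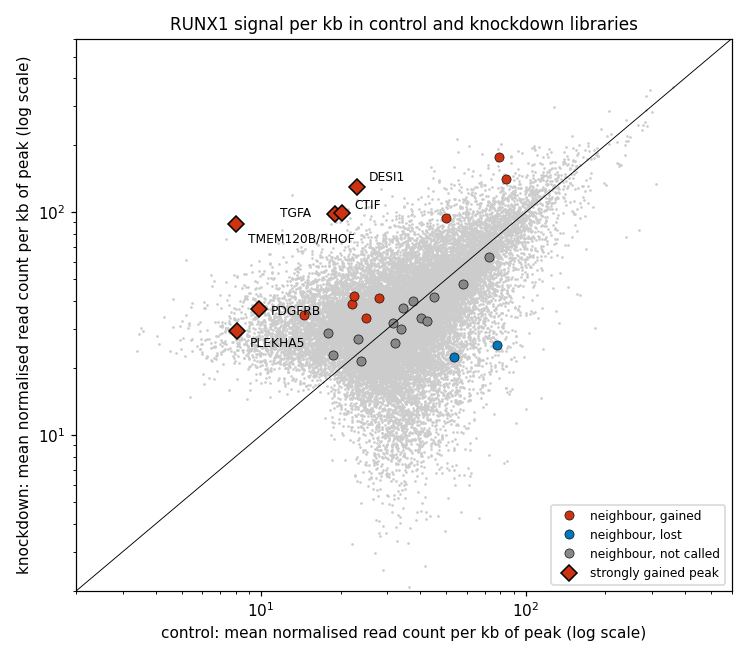
Mean normalised read count per kb of peak in control (x axis) and knockdown libraries (y axis), both on log scales, for all 26642 peaks (grey) and the peaks of the 6 loci (coloured by call). The lead peaks lie at the low end in control, between 8.04 and 22.99 reads per kb, and 4 of them reach 88.8 reads per kb or more in knockdown libraries.

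Around the lead peaks, gained, lost and uncalled peaks stood side by side. Of the 24 neighbouring peaks, 10 were called (DESeq2 fitted on all peaks, adjusted p under 0.05 and fold change over 1.1), a share of 41.7% where 42.0% of all peaks were called. Gained were 8 (33.3%, all peaks 21.3%) and lost were 2 (8.33%, all peaks 20.7%). One of the lost peaks is that at CSF1R, whose loss was known when PDGFRB was chosen, and without it 9 of 23 neighbours were called, 8 gained and 1 lost (4.35%). With 24 peaks in 6 loci, these shares are given as counts only. The log2 fold changes of the neighbours ran from -1.65 to 1.24 with a median of 0.11, beside a median of -0.025 over all peaks.

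The 5 neighbouring peaks that overlapped a promoter in the table, those of TMEM120B, RHOF, PMM1 and 2 of the long non-coding RNA LOC105370034, had log2 fold changes between -0.32 and 0.33, and none was called gained or lost (DESeq2; 0 of 5 at an unadjusted p under 0.05, and 0 of 5 called by edgeR). Over the whole series, 4.01% of promoter peaks and 25.7% of other peaks were called gained, so 0 gained among 5 promoter peaks is near the series share. The series shares of promoter peaks that were lost, under the unadjusted limit or called by edgeR are not given here. All 8 gained neighbours and both lost ones were among the 19 peaks that overlapped none of these promoters, among which CTIF has none.

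Nearness to the lead peak was examined after the values were seen. Of the 5 neighbours within 25 kb of a lead peak, 4 were gained, with 1 each around TMEM120B, DESI1, TGFA and CTIF. Between 25 and 100 kb 3 of 14 were gained and 2 lost, and beyond 100 kb 1 of 5 was gained. For the whole series, pairs of a gained peak with another peak were counted, so a peak near several gained peaks counts more than once. The other peak was gained in 29.4% of pairs within 25 kb and in 24.7% of pairs between 25 and 100 kb. Around the 407 gained peaks with a log2 fold change of at least that of the weakest lead peak, the shares of pairs were 35.9% and 28.3%.

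The 6 loci fell into different arrangements. At TMEM120B, DESI1, TGFA and CTIF another gained peak lay within 50 kb of the lead peak, as was the case for 42.7% of all gained peaks. The lead peaks of PDGFRB and PLEKHA5 had no other peak of any kind within 50 kb, which held for 19.7% of gained peaks.

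**Figure D3:**
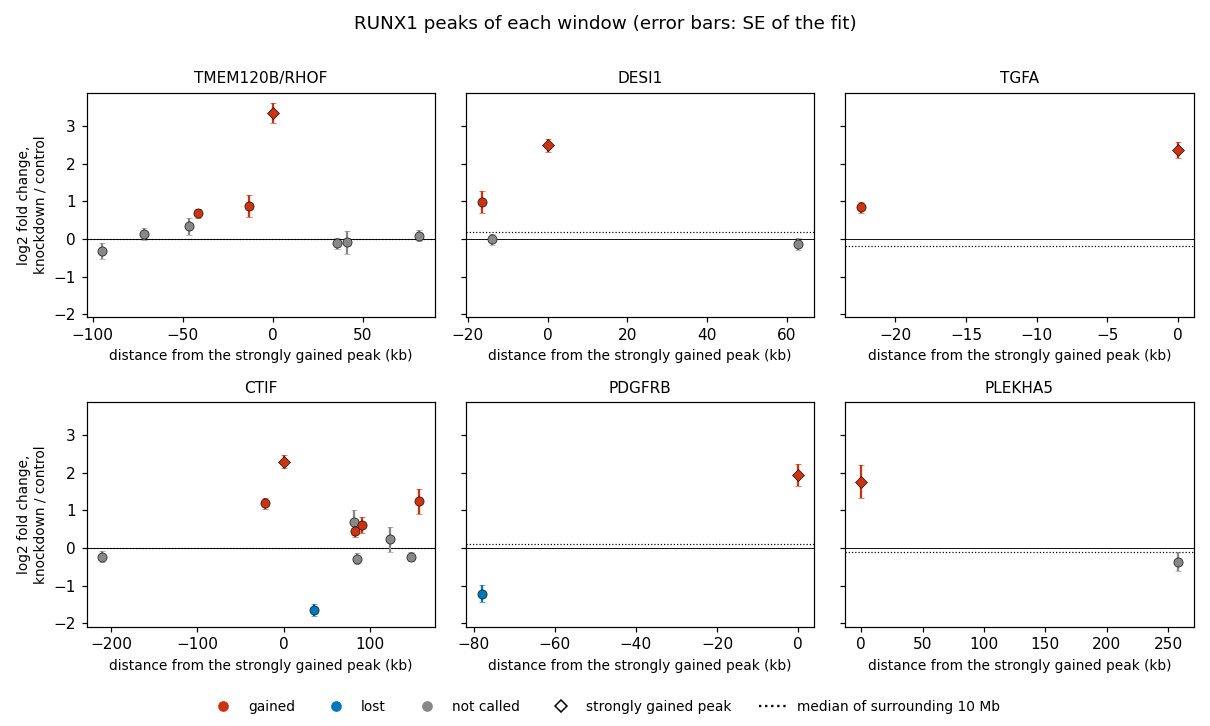
Log2 fold change of every peak of the 6 windows (y axis, error bars SE of the fit) against its distance in kb from the lead peak (x axis), with diamonds for lead peaks, colours for the call and a dotted line for the median of the surrounding 10 Mb. The lead peaks stand highest by their choice, and the highest values of the neighbours are 0.87 at TMEM120B/RHOF, 0.99 at DESI1, 0.83 at TGFA and 1.24 at CTIF, while the only neighbour of PDGFRB lies at -1.21.

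In the TMEM120B/RHOF window (9 peaks over 181 kb), 2 neighbours were gained, both inside TMEM120B and on the side of its start. The nearer one, 12098 bp from the lead peak (chr12:121745532-121746032), held 7.44 to 16.9 normalised reads in control libraries (median 9.92) and 16.5 to 21.0 in knockdown libraries (median 19.9). Its groups were apart within each batch and touched across batches (log2 fold change 0.87 ± 0.29 SE, DESeq2 adjusted p = 0.00938). The second, 40574 bp away (chr12:121716667-121717556), was the strongest site of the window per kb and already bound in control cells. It held 58.8 to 93.8 normalised reads in control and 98.1 to 142.0 in knockdown libraries, without overlap, with a log2 fold change of 0.68 ± 0.12 (SE, DESeq2 adjusted p = 2.2e-07).

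The other 6 peaks of this window were not called, with log2 fold changes between -0.32 and 0.33. Among them was the broad peak over the start of RHOF (chr12:121793515-121795735), which also touches SETD1B, a histone H3 lysine 4 methyltransferase gene. It held 55.8 to 93.6 normalised reads in control (median 75.4) and 62.8 to 68.5 in knockdown libraries (median 67.1). The knockdown libraries lay inside the control range over both batches (log2 fold change -0.11, DESeq2 adjusted p = 0.542). Within batch 1, however, both knockdown libraries (66.7 and 68.5) lay below all controls (74.4 to 93.6). The log2 fold change was -0.34 within batch 1 and 0.084 within batch 2, and the peak was not called in either. At HPD, an enzyme of tyrosine breakdown, the peak at the far end had a log2 fold change of 0.085. The summed count of all 8 neighbours was 352.3 ± 26.02 in control and 407.2 ± 14.4 in knockdown libraries (SD, n = 6), a log2 ratio of 0.21 (0.11 in batch 1, 0.29 in batch 2) beside 3.35 for the lead peak.

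In the DESI1 window (4 peaks over 123 kb), a pair of peaks only 1293 bp apart at PMM1, which encodes a phosphomannomutase, had different values. The peak inside the gene body (chr22:41587488-41588057) rose from 12.8 ± 6.08 to 24.0 ± 5.78 normalised reads (SD, n = 6), with a log2 fold change of 0.99 ± 0.30 (SE, DESeq2 adjusted p = 0.00334). Its groups overlapped, with control libraries up to 20.8 and knockdown libraries down to 17.4, and it was not called in batch 1 or batch 2 alone (DESeq2 adjusted p = 0.196 and 0.0961). The peak over the start of PMM1 (chr22:41589350-41591146) held 45.5 to 65.7 normalised reads in control and 50.04 to 62.9 in knockdown libraries, with a log2 fold change of -0.013. The peak 2347 bp from XRCC6, the gene of the DNA repair protein Ku70, had a log2 fold change of -0.13 ± 0.16 (SE, DESeq2 adjusted p = 0.538). Summed over the 3 neighbours, the count was 128.5 ± 9.58 in control and 135.4 ± 11.9 in knockdown libraries.

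The TGFA window held no peak inside the gene, and its only neighbour lay on the same upstream side, 21367 bp from the lead peak (chr2:70573880-70575132). This peak was already well bound, with 38.2 to 83.2 normalised reads in control libraries (median 62.5), and held 94.8 to 137.9 in knockdown libraries (median 119.2). The groups did not overlap, and the log2 fold change was 0.83 ± 0.14 (SE, DESeq2 adjusted p = 1.1e-08). Per kb, the lead peak was the weaker of the pair in control (19.04 against 49.8 normalised reads) and held 98.4 against 93.9 in knockdown libraries.

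The CTIF window was the richest, with 11 peaks over 424 kb, of which 8 lay inside the gene. It held gains and a loss side by side. On the lower-coordinate side, 20813 bp from the lead peak, the peak at chr18:48728130-48729043 held 51.8 to 99.6 normalised reads in control and 141.6 to 176.4 in knockdown libraries (log2 fold change 1.18 ± 0.14 SE, DESeq2 adjusted p = 6.7e-16). In knockdown cells this was the strongest site of all 30 per kb (176.9 normalised reads). On the other side, 33755 bp away, the peak at chr18:48784782-48786009 fell from 95.8 ± 14.3 to 31.2 ± 5.97 normalised reads (SD, n = 6; log2 fold change -1.65 ± 0.16 SE, DESeq2 adjusted p = 1.3e-22). No knockdown library (24.2 to 39.2) reached the lowest control library (75.4). The lead peak of CTIF was the only one of the 6 with a lost peak within 50 kb, as had 28.8% of all gained peaks.

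Farther along CTIF, 3 peaks stood in a row with gaps of 340 and 436 bp, where the antisense transcript CTIF-AS1 is also annotated. Their log2 fold changes were 0.69 ± 0.34, 0.46 ± 0.18 and -0.29 ± 0.14 (SE), and only the middle one was called (chr18:48831949-48833493, DESeq2 adjusted p = 0.0244). That call was lost when any 1 of 5 libraries was left out (DESeq2 adjusted p up to 0.152) and in either batch alone, so it is uncertain. The next peak (chr18:48840699-48841802) rose from 30.9 ± 10.9 to 45.7 ± 7.51 normalised reads (SD, n = 6) with overlapping groups (log2 fold change 0.61 ± 0.20 SE, DESeq2 adjusted p = 0.00796). Leaving out control replicate 6 ended this call (DESeq2 adjusted p = 0.0595). It was also not made in batch 1 or batch 2 alone (DESeq2 adjusted p = 0.166 and 0.214).

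At the outer end of the window, 13050 bp from SMAD7, an inhibitor of TGF-beta signalling, a weak peak (chr18:48906218-48906803) held 4.69 to 11.6 normalised reads in control and 14.9 to 32.1 in knockdown libraries. It was gained without overlap (log2 fold change 1.24 ± 0.33 SE, DESeq2 adjusted p = 6.8e-04). The broad peak near the lower end of the CTIF span (chr18:48539431-48541785), the highest count of the window in control libraries, was not called (log2 fold change -0.22, DESeq2 adjusted p = 0.181). Gained, lost and uncalled peaks together gave a summed count of the 10 neighbours of 574.1 ± 27.2 in control and 596.7 ± 63.7 in knockdown libraries (SD, n = 6), a log2 ratio of 0.056.

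The PDGFRB window held 2 peaks that moved in opposite directions. The other one lay 77141 bp away inside CSF1R, which encodes the receptor for macrophage colony-stimulating factor, and it held 28.8 to 45.1 normalised reads in control and 8.31 to 19.1 in knockdown libraries (log2 fold change -1.21 ± 0.22 SE). This loss was known when PDGFRB was chosen and is given without a test. No peak lay between these peaks or inside PDGFRB itself. In the control cells the CSF1R peak was the stronger one per kb (53.4 against 9.79 normalised reads), and in the knockdown cells the PDGFRB peak was (36.9 against 22.4).

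PLEKHA5 spans 247 kb and held its lead peak as the only RUNX1 peak, 257203 bp from the other peak of the window. That peak, inside AEBP2, which encodes a partner of the Polycomb repressive complex PRC2, held 16.8 to 32.7 normalised reads in control and 9.32 to 21.9 in knockdown libraries and was not called (log2 fold change -0.36 ± 0.26 SE, DESeq2 adjusted p = 0.272).

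**Figure D4:**
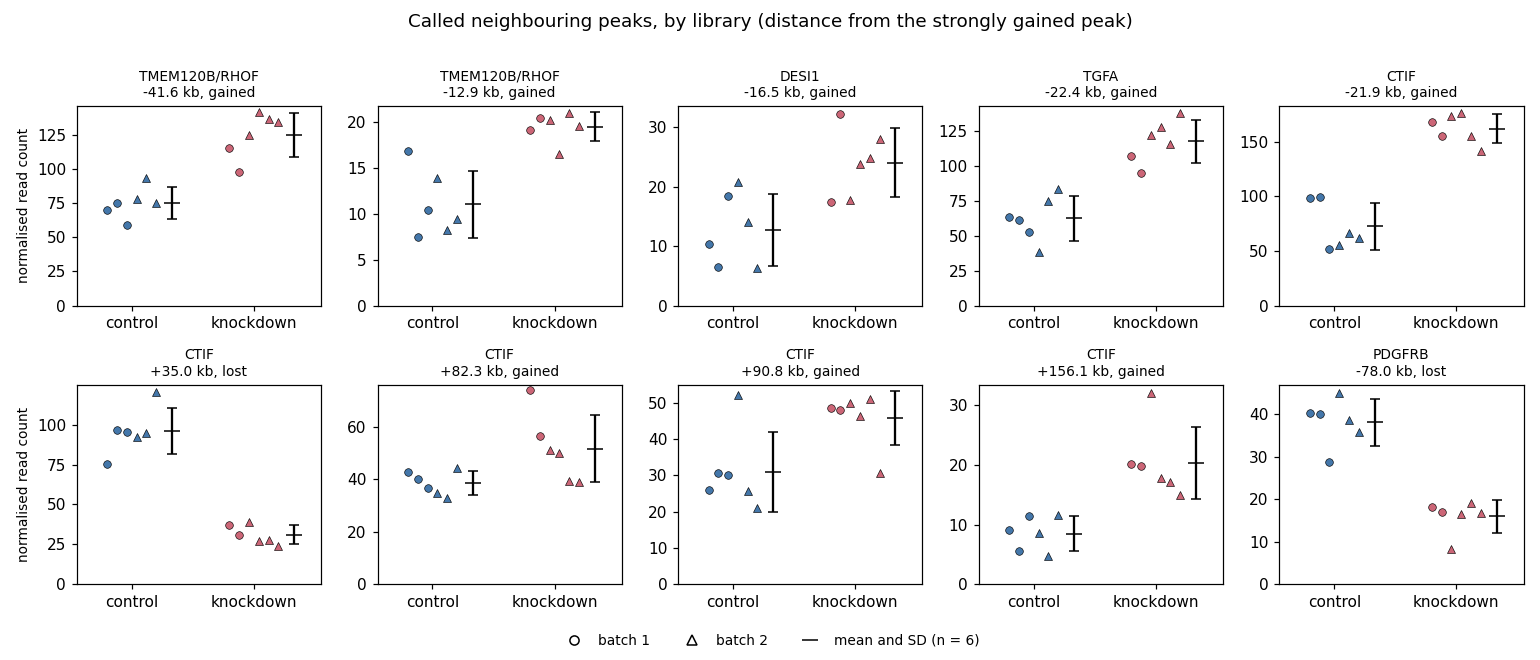
Normalised RUNX1 read count (y axis) of the 10 called neighbouring peaks by library, each titled with its locus, its distance in kb from the lead peak and its call, with circles for batch 1, triangles for batch 2 and a bar for mean and SD. The groups are clearly apart at the peak lost in CTIF (75.4 to 120.1 in control, 24.2 to 39.2 in knockdown) and overlap at the gained peaks 82.3 and 90.8 kb from the CTIF lead peak.

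The distance of 50 kb decided which peaks entered, so the peaks on both sides of that edge were compared as a description. Just outside the CTIF window, 7439 bp from its lower edge, a peak had a log2 fold change of -1.76 and was called lost. Another peak, 2461 bp beyond its upper edge, had 0.45 and was not called. The last peaks inside had -0.22 and 1.24. Around TMEM120B/RHOF the first peaks outside had -0.033 and -0.25 and the last inside -0.32 and 0.085, and around DESI1 -0.12 and -0.088 outside stood beside 0.99 and -0.13 inside. Just 1695 bp outside the PLEKHA5 window a peak had a log2 fold change of 0.92 and was called gained, where the last inside had -0.36. The nearest outer peaks of TGFA and PDGFRB were between 51324 and 257494 bp from the edges, with log2 fold changes of -0.21 to 0.71. The peak at 0.71, below the PDGFRB window, was called gained. Outer peaks given here without a stated call were not called.

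To express lone against regional gain per library, the share of the counts of a window that fell into its lead peak was computed. Since the lead peaks were chosen on this contrast, the shares are a description. At TMEM120B/RHOF the lead peak held 2.40% ± 1.03 of the counts of its 9 peaks in control and 18.96% ± 4.70 in knockdown libraries (SD, n = 6). At CTIF, with 11 peaks, the share went from 3.95% ± 0.95 to 16.5% ± 2.30, and at DESI1, with 4 peaks, from 15.3% ± 0.90 to 49.2% ± 5.04. At TGFA the share went from 21.5% ± 7.18 to 42.1% ± 4.39, in a window where the other peak also gained. At PDGFRB it went from 19.0% ± 4.34 to 67.6% ± 6.40, where the lead peak went up and the CSF1R peak went down, and at PLEKHA5 from 13.5% ± 6.22 to 45.4% ± 8.42. In all 6 windows the lowest knockdown library lay above the highest control library.

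**Figure D5:**
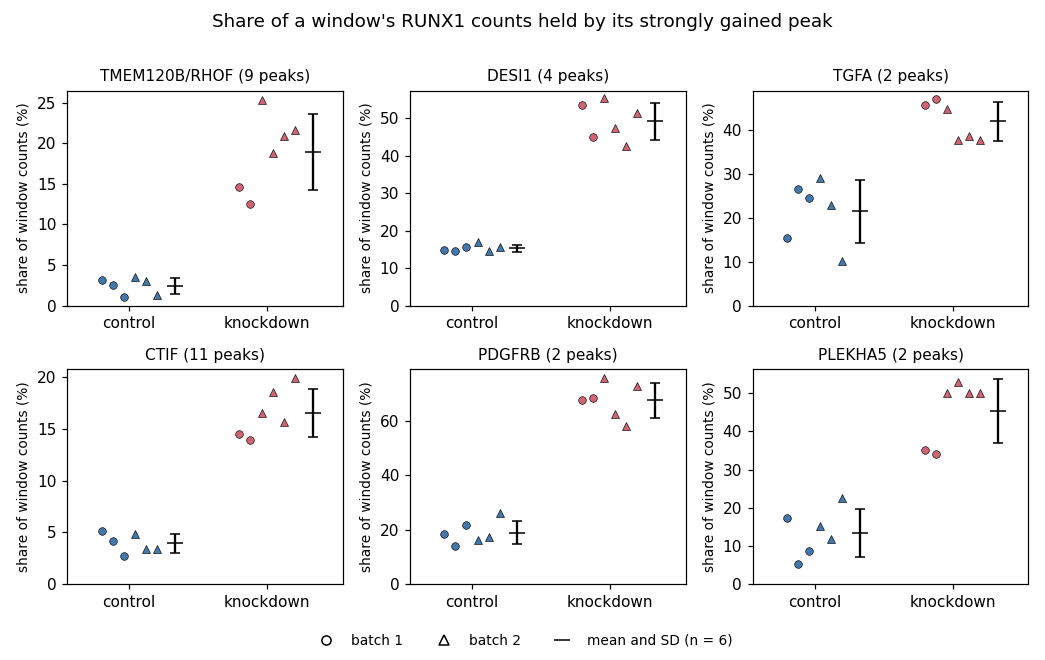
Share of the normalised counts of a window that its lead peak held (y axis, percent) in each control and knockdown library, with circles for batch 1, triangles for batch 2 and a bar for mean and SD. The share is higher in all knockdown than in all control libraries in each of the 6 windows, for example 14.5% to 16.9% in control and 42.7% to 55.4% in knockdown libraries at DESI1.

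The neighbours were also read within each batch, as the batches share no library. All 10 called neighbours had the same direction in both batches, and of all 24 neighbours 18 did, where 80.0% of all peaks did. The calls rest on both batches together, which favours a shared direction, so the 10 are a description only. Within batch 1 alone 2 neighbours were gained (all peaks 5.38%) and 1 lost (all peaks 6.61%). Within batch 2 alone 4 were gained (all peaks 12.8%) and 2 lost (all peaks 13.1%), the CSF1R peak being 1 of these. All 3 of batch 1 were among them. These 3 were the TGFA neighbour and the CTIF peaks 20813 and 33755 bp from their lead peaks. The interaction of knockdown and batch was called at 0 of 24 neighbours and 0 of 26642 peaks (DESeq2 interaction, adjusted p under 0.05). At an unadjusted p under 0.05 it was 0 of 24 neighbours and 669 of 26642 peaks. The lowest unadjusted p of a neighbour was 0.118 (DESeq2 interaction). With 2 knockdown libraries in batch 1, this does not show that the effects were equal.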

How the data were processed

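RUNX1 ChIP-seq was measured in 6 control and 6 knockdown THP-1 libraries over 2 batches. The authors deposited raw counts of reads per peak, made with featureCounts on a single peak set for all libraries. That set joins the macs2 peaks of both conditions that passed a reproducibility filter (IDR) across batches, from bowtie2 alignments without duplicates. Peak widths, deposited as other information, served only to express signal per kb. Peaks were called on the compared libraries, so they are not independent of the comparison. The versions of the tools that made the counts are not given in the sources used here. The submitters' notes name GRCm38 and GRCh38. Coordinates were taken as GRCh38, as 20.4% of peaks overlapped a GRCh38.p14 RefSeq promoter, against 1.80% to 2.29% after moving all peaks by 10 kb to 1 Mb. Peak sequences were not used here. Exons and introns are not named, as the gene table gives spans only.

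Differential binding was tested across all 26642 peaks with DESeq2 1.42.0 (R 4.3.3), size factors by median of ratios and a batch term, and called at a Benjamini-Hochberg adjusted p under 0.05 with a fold change over 1.1. DESeq2 was preferred over edgeR 4.0.16 (alternative) because the study used it. Size factors centre the changes near 0, so a global gain would not be seen. No low-count filter was applied, and all 30 peaks had an adjusted p, while 19 had at least 10 reads in every library. Named were the lead peaks, called neighbours, the strongest control site per kb and the peaks next to each lead peak; some uncalled ones beyond that rule are named by their position. The genes, lists and tests were chosen with earlier results of these data known. The fits were tested on simulated data. Alternatives were edgeR, other size factors, no batch covariate, a replicate block, a count filter, a fold change of 2, other windows, centring on 10 Mb, single batches and leaving out each library.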

Additional observations from a re-analysis of the deposited data

Results flagged for a closer look

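In 78 groups of 6 libraries (counts of the 30 peaks, lead shares and summed neighbour counts), 5 had 1 library far from the other 5 by Dixon's criterion, where chance gives about 1 in 20, or 3.9. At the CTIF peak chr18:48840699-48841802, control replicate 4 held 52.03 normalised reads (21.1 to 30.7 in the other controls) and knockdown replicate 6 held 30.8 (46.2 to 51.0 in the others), so this gained peak carried both. Knockdown replicate 3 held 32.1 at the peak near SMAD7, chr18:48906218-48906803 (14.9 to 20.1 in the others), and 8.31 at the CSF1R peak (16.5 to 19.1 in the others). The summed neighbour count of the TMEM120B/RHOF window was 404.1 in control replicate 1 (333.9 to 350.8 in the other controls), which reached the knockdown range of 388.1 to 430.1. The causes were not tested.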

How the results depend on the processing

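The 8 gained and 2 lost neighbours became 5 and 1 with at least 10 counts in every library, which left 17 of the 24 neighbours and 2 of the 6 lead peaks to test and 5877 calls among 18255 peaks. A fold change over 2 gave 2 gained and 2 lost neighbours, with 4545 calls over all peaks (11185 at 1.1). A window of 25 kb held 17 neighbours, no longer the TGFA lead peak, and gave 7 gained, 1 lost and a median log2 fold change of 0.33. A window of 100 kb held 40 neighbours, with 13 gained and 4 lost. Batch 1 alone gave 2 gained and 1 lost (3194 calls over all peaks), and batch 2 alone 4 gained and 2 lost (6886 calls over all peaks). Without the CSF1R peak 8 were gained and 1 lost. The single batches and this last count were added after seeing the data. Leaving out 1 library gave 7 to 8 gained and 2 to 3 lost neighbours, with medians of 0.067 to 0.158. edgeR called 9 gained and 2 lost, the added one being the CTIF peak chr18:48831115-48831609; other size factors and centring on 10 Mb gave 8 and 2. Without the batch covariate and with the replicate block, 7 were gained and 2 lost.

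The replicate numbers do not pair the libraries: same-numbered libraries correlated at -0.101 to 0.012, and number 3 lies in different batches. The block ended 1 named call, of the CTIF peak chr18:48831949-48833493 (DESeq2 adjusted p = 0.115). Weak peaks rest on few reads (1 to 9 per control library at PLEKHA5), which limits the precision of their fold changes.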
